A study of Mus musculus with 6 samples.

Results

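The GIMAP GTPases (GTPases of the immunity-associated protein family) were taken as the 8 rows of the count table whose symbols are Gimap1, Gimap3, Gimap4, Gimap5, Gimap6, Gimap7, Gimap8 and Gimap9, out of 47643 genes in all. A further row, Gimap1os, is an antisense transcript of the locus and was not counted as a member. The study sorted thymic NKT1 cells of wild-type BALB/c mice by their CD4 coreceptor and sequenced polyadenylated RNA, giving 3 CD4-positive and 3 CD4-negative libraries. NKT1 is the T-bet-expressing subset of invariant natural killer T (iNKT) cells, which are T cells with a nearly fixed receptor for lipids presented by CD1d. The comparison asked which transcripts differ between the NKT1 cells that carry the CD4 coreceptor and those that lack it. No treatment or engineered allele is named for either group, and the labels give neither the age nor the number of animals.

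GIMAP proteins share a GTP-binding domain related to that of the septins, and most of them sit on intracellular membranes, where GTP binding drives their assembly. Their genes form a single cluster in mammals and are expressed mainly in lymphocytes, with some members also known from endothelium. The family is best known for the survival of mature T cells: loss of Gimap5 causes lymphopenia in rats and mice, and loss of Gimap1 in mice removes most peripheral B and T cells.

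The cluster spans 123.6 kb of mouse chromosome 6, from 48647234 to 48770851 (GRCm38, GENCODE M21). In genomic order its genes are Gimap8 (48647234 to 48660875), Gimap9 (48676129 to 48679114), Gimap4 (48684549 to 48692060), Gimap6 (48701582 to 48708225), Gimap7 (48718621 to 48724636), Gimap1 (48739054 to 48743795), Gimap5 (48746197 to 48754210) and Gimap3 (48764464 to 48770851). Gimap6 and Gimap3 lie on the minus strand and the other members on the plus strand.

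The P-loop, the part of a GTPase that holds the phosphates of GTP, is what the members have in common, and its codons are shown here as the signature of the family. Each line gives 24 bases of the coding strand, 5′ to 3′, from the longest complete coding transcript of the gene in GENCODE M21. Capitals mark the codons that define the motif, which are a first glycine codon and then, after a gap of any codons, glycine, lysine and serine codons. Gimap8 held 3 copies and every other member 1 copy.
Gimap1: GGCaggactgggaccGGCAAGAGT
Gimap3: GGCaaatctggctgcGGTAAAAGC
Gimap4: GGAaaaactggagcaGGAAAGAGT
Gimap5: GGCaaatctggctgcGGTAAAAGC
Gimap6: GGGaaaacaggaagcGGGAAAAGT
Gimap7: GGGaaaacaggaagtGGAAAGAGC
Gimap8 copy 1: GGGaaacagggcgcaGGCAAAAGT
Gimap8 copy 2: GGGaagcgtggtgttGGGAAAAGT
Gimap8 copy 3: GGAaggagtggggctGGAAAGAGT
Gimap9: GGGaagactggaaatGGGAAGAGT

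These stretches are exonic and coding. They lie at chr6:48742552-48742575 in exon 3 of Gimap1, chr6:48765887-48765910 in exon 5 of Gimap3, chr6:48690421-48690444 in exon 3 of Gimap4 and chr6:48752594-48752617 in exon 3 of Gimap5. They lie at chr6:48702750-48702773 in exon 3 of Gimap6, chr6:48723524-48723547 in exon 2 of Gimap7 and chr6:48677523-48677546 in exon 2 of Gimap9. The Gimap8 copies lie in its exons 2, 4 and 5, at chr6:48650256-48650279, chr6:48656119-48656142 and chr6:48658746-48658769. The stretches of Gimap3 and Gimap5 were identical, base for base. Over their whole coding sequences these genes were identical at 90.6% of aligned bases, while the other 20 pairs among the members except the longer Gimap8 were identical at 58.1% to 68.9%.

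That likeness bears on the counts, because reads that fit several genes are divided between them by an estimate. Of the distinct stretches of 50 bases in the transcripts of a member, 190 were shared between Gimap3 (of 2528) and Gimap5 (of 4195). A read-through gene model, Gm28053, runs from Gimap7 to Gimap5 and shared 149 such stretches with Gimap1, 105 with Gimap5 and 32 with Gimap7. Gimap4, Gimap8 and Gimap9 shared none with any other gene of the annotation. The deposited counts of Gimap1 and Gimap3 were fractional in 6 of 6 libraries and those of Gimap5 in 5, while the other members had whole counts throughout (to within 1e-06). Values of Gimap1, Gimap3 and Gimap5 are therefore less certain than the rest. Gimap1os runs antisense over Gimap1, with 1011 of the 3116 stretches of Gimap1 on its opposite strand. The library kit marks strand, but the strand setting of the counting is not given in the sources used here, so reads of Gimap1 and Gimap1os may not be fully separated.

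The library totals were 40480468 to 53145898 estimated counts. The sort marker Cd4 stood at 401 to 508 CPM (a gene's counts scaled to library size, with TMM factors for library composition) in the CD4-positive and at 10.9 to 41.2 CPM in the CD4-negative libraries. All 8 fixed NKT1 markers were expressed, with summed levels of 2982 to 3996 and 2857 to 3500 CPM. CD4-negative replicate 3 stood apart from the other libraries on the first principal component (-90.2, the others between -2.31 and 32.2) and had the fewest genes with a count (13804, the others 15320 to 16319). This library and CD4-positive replicate 1 had the lowest shares of mitochondrial counts, 1.33% and 1.35%, against 3.51% to 5.19% in the rest. Markers of other cells that can express GIMAP genes were read beside these. The 6 endothelial markers summed to at most 0.21 CPM in a CD4-positive and 0.22 CPM in a CD4-negative library, with Kdr and Emcn at 0 counts, and the 4 B cell markers to at most 0.81 and 0.67 CPM. Markers of immature thymocytes, of NK cells and ILCs, and of naive T cells were higher. The 6 immature thymocyte markers summed to 18.8, 14.1 and 70.8 CPM in CD4-positive replicates 1 to 3. In CD4-negative replicates 1 to 3 they summed to 24.5, 16.8 and 64.4 CPM, so that both replicates 3 were high. Of these sums Cd1d1 alone made up 9.12 to 13.4 CPM in every library. The largest parts in replicates 3 were Rag1 (44.8 CPM) in the CD4-positive library, and Dntt (27.1 CPM) and Rag1 (15.6 CPM) in the CD4-negative one. The 3 NK cell and ILC markers summed to 71.9 to 89.7 CPM in CD4-positive and 183 to 192 CPM in CD4-negative libraries. Of the genes that mark naive T cells, Lef1 had 39.3 to 63.3 and 28.7 to 58.1 CPM and Ccr7 5.76 to 8.64 and 3.37 to 8.18 CPM. The part of such cells in the GIMAP levels was not tested. In bulk RNA, fewer cells of a type and less RNA per cell cannot be told apart.

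GIMAP transcripts were abundant in both subsets. The 8 genes together took 0.375% to 0.599% of all counts of a library. Their summed level was 5648, 3987 and 4397 CPM in CD4-positive replicates 1, 2 and 3 and 3702, 3722 and 6333 CPM in CD4-negative replicates 1, 2 and 3. The group means were 4677 ± 865 and 4586 ± 1513 CPM (SD, n = 3 each), a ratio of 1.02. The highest library of each group was CD4-positive replicate 1 and CD4-negative replicate 3, and the groups overlapped throughout.

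Per kilobase of exon, Gimap4 was the most abundant member. It stood at 1058 CPM per kb on average over the 6 libraries (735 to 1638). This placed it 31st of the 14568 protein-coding genes whose identifier matched the annotation in its version too. Protein-coding genes with another version were not ranked, so its place among all of them may be lower. Gimap3 (301, range 253 to 388) and Gimap6 (240, range 192 to 298) followed, with overlapping ranges. Next came Gimap9 (125, range 102 to 171), Gimap8 (96.7, range 92.9 to 104), Gimap1 (75.3, range 57.5 to 106), Gimap7 (48.5, range 30.2 to 76.3) and Gimap5 (40.5, range 36.4 to 45.6), all in CPM per kb. In this lower run each gene overlapped the next in range. The ranges of Gimap4 and Gimap3, and those of Gimap6 and Gimap9, did not overlap. The exon length counts every annotated isoform, retained introns included. With the length of the longest coding transcript instead, Gimap4 stayed first at 1077 CPM per kb, Gimap6 (525) came before Gimap3 (362), and Gimap1 (155) rose above Gimap9 (148) and Gimap8 (114), with Gimap7 (88.9) and Gimap5 (86.0) last.

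None of the 8 members passed the test between CD4-positive and CD4-negative NKT1 cells. By edgeR's quasi-likelihood test over all 12760 genes with enough counts, 0 of 8 passed an adjusted p of 0.05, against 0.212% of all tested genes (0.0705% higher and 0.141% lower in CD4-positive cells). At an unadjusted p under 0.05 the count was also 0 of 8, against 4.44% of all tested genes, and the smallest unadjusted p was 0.446, for Gimap5. DESeq2 and limma-voom called 0 of 8 and gave 0 of 8 at an unadjusted p under 0.05. The libraries of the groups overlapped in every member, while in 9.41% of all tested genes they did not (4.84% higher and 4.57% lower in CD4-positive cells). The log2 difference was above 0 in 5 of 8 members and in 48.9% of all tested genes. The log2 differences, CD4-positive minus CD4-negative, ran from -0.14 to 0.28 with a median of 0.02, and the median over all tested genes was -0.01. The plot of log2 differences shows each value with its 95% interval. The width of an interval draws on the spread of all tested genes as well as on that of the gene itself. For 7 of the 8 members the 95% interval excluded a 2-fold difference in either direction.

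**Figure D1:**
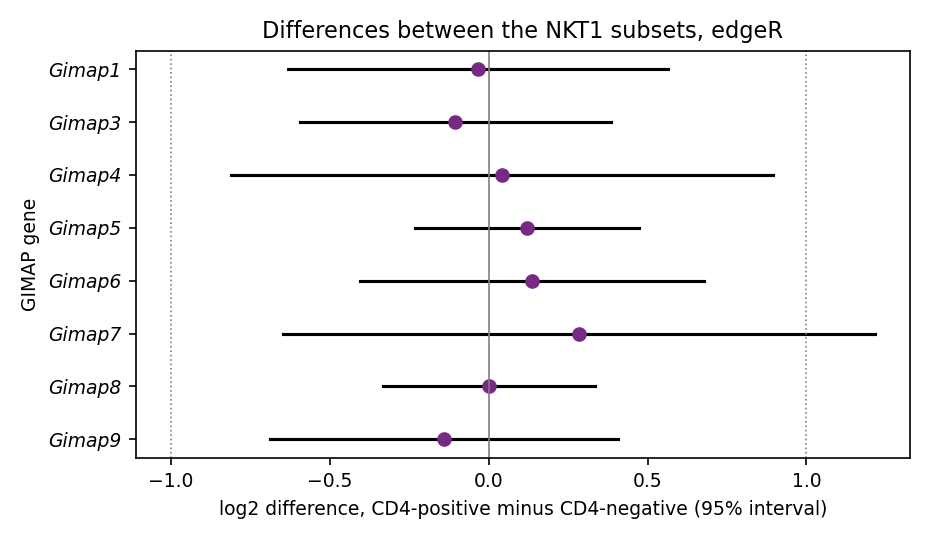
The log2 difference of each GIMAP gene (CD4-positive minus CD4-negative, edgeR, 3 libraries per group) is drawn as a point with its 95% interval as a line. The dotted lines mark a 2-fold difference; every interval spans 0, and that of Gimap7 alone reaches past a dotted line, at 1.21.

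Gimap4, whose product binds GTP and speeds the death of T cells that have received a death signal, had 2531, 1517 and 1866 CPM in CD4-positive replicates 1 to 3. In the CD4-negative libraries it had 1383, 1350 and 3009 CPM. The CD4-negative values thus held both the lowest and the highest library of the series. The means were 1972 ± 515 and 1914 ± 948 CPM, with a log2 difference of 0.04 (SE 0.36, adjusted p = 0.999993), and the 95% interval ran from 0.57-fold to 1.86-fold.

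Gimap7, whose human protein hydrolyses GTP when it pairs with itself, varied most. CD4-positive replicates 1 to 3 had 177, 94.0 and 99.997 CPM and CD4-negative replicates 1 to 3 had 71.8, 70.2 and 163 CPM, a 2.53-fold span over the 6 libraries. The highest library of each group lay far above the other two. Its log2 difference was 0.28 (SE 0.40, adjusted p = 0.999993), with an interval of 0.64-fold to 2.32-fold, the widest of the family.

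Gimap6, which binds an ATG8 protein and takes part in autophagy, had 1043, 807 and 781 CPM in CD4-positive and 670, 692 and 1032 CPM in CD4-negative libraries. The means were 877 ± 144 and 798 ± 203 CPM (log2 difference 0.14, SE 0.23, adjusted p = 0.999993). Apart from CD4-negative replicate 3, the CD4-negative libraries lay below every CD4-positive library. The same was true of Gimap4, Gimap5 and Gimap7.

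Gimap5 and Gimap1, both needed for lymphocyte survival, had overlapping groups. Gimap5, a lysosomal membrane protein in lymphocytes, had 189, 166 and 170 CPM in CD4-positive and 151, 152 and 180 CPM in CD4-negative libraries (log2 difference 0.12, SE 0.15). Its interval, 0.85-fold to 1.39-fold, was among the narrower ones. Gimap1 had 264, 200 and 222 CPM in CD4-positive and 177, 201 and 325 CPM in CD4-negative libraries (log2 difference -0.03, SE 0.26), with the highest value of the series in CD4-negative replicate 3.

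Gimap3, the close relative of Gimap5 that is a pseudogene in humans, had 862, 652 and 729 CPM in CD4-positive and 697, 718 and 999 CPM in CD4-negative libraries. The groups overlapped and the log2 difference was -0.11 (SE 0.21). Gimap9 had 237, 167 and 182 CPM in CD4-positive and 191, 174 and 280 CPM in CD4-negative libraries (log2 difference -0.14, SE 0.23). It had the most negative difference of the family, which was smaller than the spread within either group.

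Gimap8, the largest member, with its 3 GTP-binding domains, was the steadiest. CD4-positive replicates 1 to 3 had 344, 383 and 347 CPM and CD4-negative replicates 1 to 3 had 362, 366 and 345 CPM. The means were 358 ± 22.1 and 358 ± 11.4 CPM, with a log2 difference of 0.00104 (SE 0.14) and an interval of 0.79-fold to 1.26-fold. It was highest in replicate 2 of each group. Over the 6 libraries its Pearson r with the sum of the other members was -0.738, on log2 of CPM plus 1. The other members, each against the sum of the rest, had 0.893 to 0.981. The highest library of Gimap8 was only 1.12 times its lowest, so with 6 points this r describes small differences between these libraries only.

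**Figure D2:**
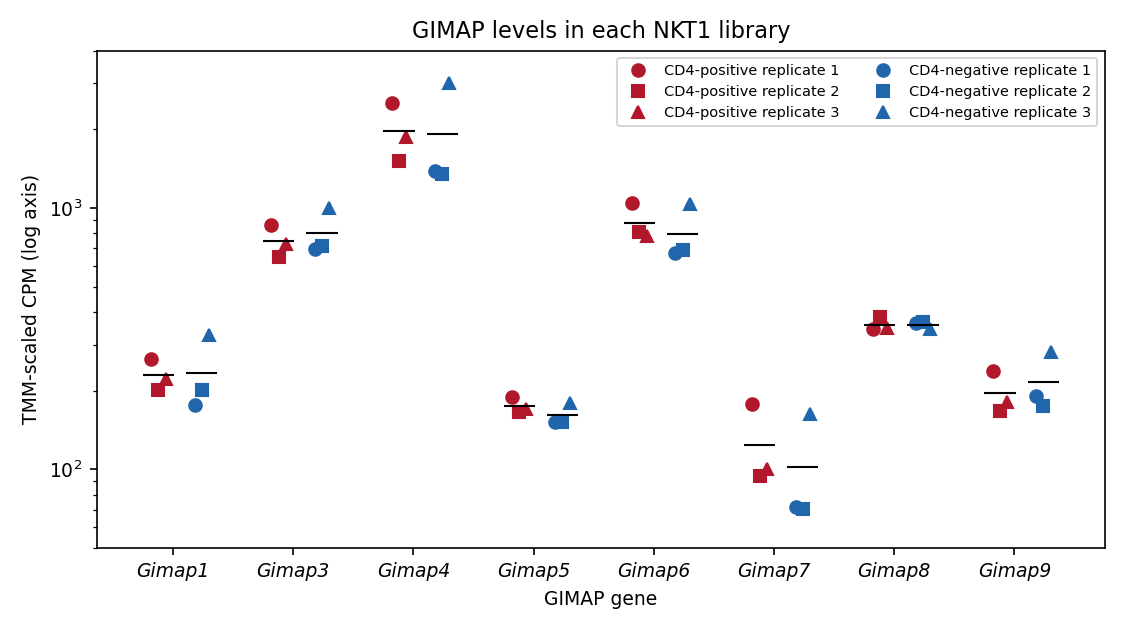
Each point is a library's TMM-scaled CPM on a log axis, in red for CD4-positive and blue for CD4-negative cells, with the marker shape giving the replicate and a black bar the mean of 3 libraries. The groups overlap in each gene, and CD4-positive replicate 1 and CD4-negative replicate 3 are the 2 highest libraries in 7 of the 8 genes, Gimap8 being the exception.

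The larger variation ran between libraries of a group. CD4-positive replicate 1 and CD4-negative replicate 3, which had the lowest mitochondrial shares, were the 2 highest libraries in 7 of 8 members. The same order was found in 21.4% of all tested genes, and in 31.0% of the 3888 genes averaging 50 CPM or more. The highest CD4-negative library stood above the lowest 2.32-fold in Gimap7, 2.23-fold in Gimap4, 1.84-fold in Gimap1, 1.61-fold in Gimap9 and 1.54-fold in Gimap6. The same ratio was 1.43 in Gimap3, 1.19 in Gimap5 and 1.06 in Gimap8. Among CD4-positive libraries it ran from 1.89 in Gimap7 and 1.67 in Gimap4 down to 1.14 in Gimap5 and 1.12 in Gimap8. Gimap7 and Gimap4 thus varied most and Gimap8 and Gimap5 least in each group. Over all 6 libraries the coefficient of variation was 41.1% for Gimap7, 35.2% for Gimap4 and 4.40% for Gimap8.

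**Figure D3:**
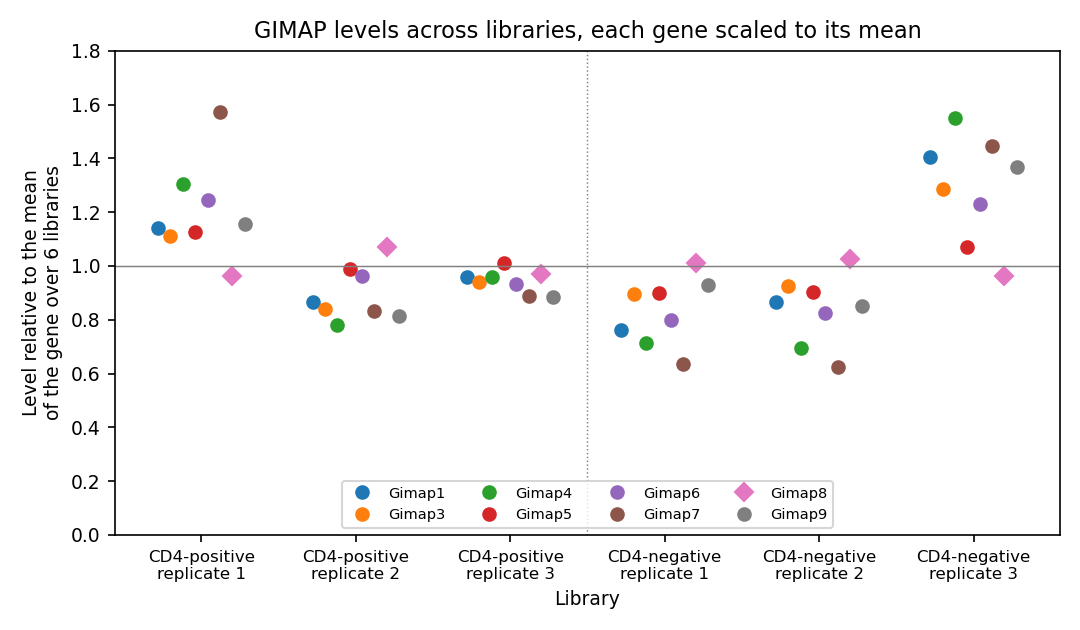
The level of each GIMAP gene in a library is divided by its mean over the 6 libraries, so that 1 is the mean; points are single libraries and colours are genes. Gimap4 and Gimap7 reach 1.55 and 1.45 in CD4-negative replicate 3 and 1.30 and 1.57 in CD4-positive replicate 1, while Gimap8 (diamonds) stays between 0.96 and 1.07.

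The members were also compared without these libraries, a choice made after their high GIMAP levels had been seen, so that the narrower spread left in each group is no evidence of a difference. In the 4 libraries with a mitochondrial share above 3% (CD4-positive replicates 2 and 3, CD4-negative replicates 1 and 2), 6 of 8 members had a log2 difference above 0 and 0 passed. Gimap7 had 0.45, Gimap4 0.31, Gimap6 0.23 and Gimap8 0.0075 on the log2 scale. Replicates 3 of both groups carry library names of another scheme than replicates 1 and 2. In replicates 1 and 2 alone, also chosen after seeing the data, the summed level was 1.30 times as high in CD4-positive libraries, 8 of 8 members had a log2 difference above 0 and 0 passed. In replicates 3 the summed level was 4397 CPM for the CD4-positive library and 6333 CPM for the CD4-negative one, with 1 library a group and no test. Without CD4-negative replicate 3 alone the summed level of the family was 1.26 times as high in CD4-positive as in CD4-negative libraries, and Gimap7 had a log2 difference of 0.81 and Gimap4 of 0.53. Without CD4-positive replicate 1 alone the summed ratio was 0.914, and Gimap7 and Gimap4 turned to -0.07 and -0.18. The sign of the difference in Gimap7 and Gimap4 thus changed with a single library left out.

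**Figure D4:**
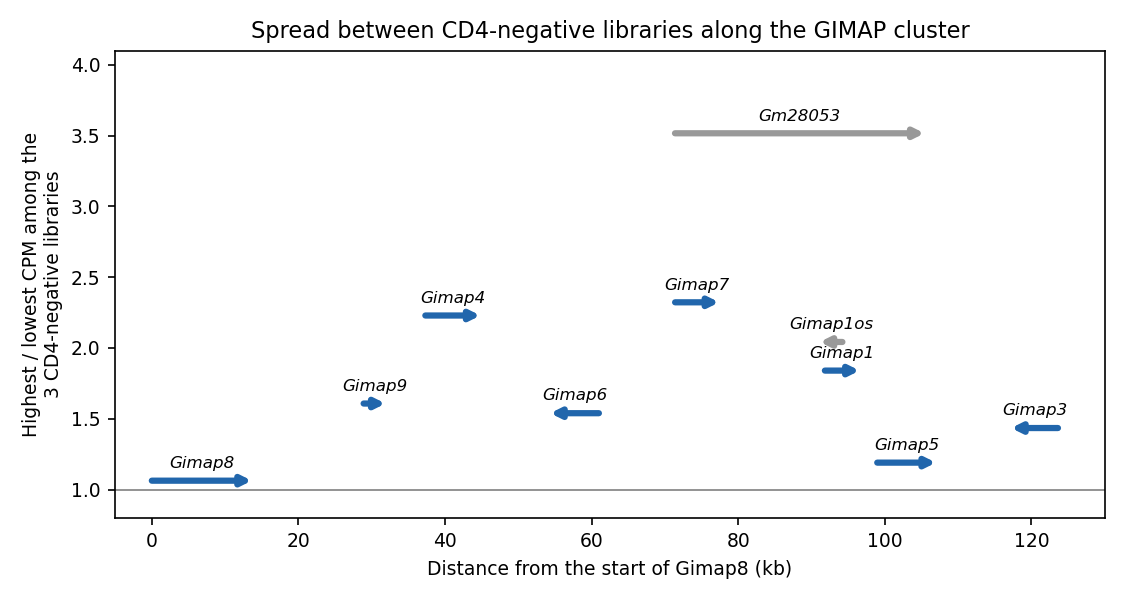
Genes of the cluster are drawn as arrows in the direction of transcription at their distance from the start of Gimap8 (in kb), at a height that gives the ratio of the highest to the lowest CPM among the 3 CD4-negative libraries. Members are blue and the overlapping Gimap1os and Gm28053 grey; Gimap8, at the left end, lies at 1.06, and Gimap7 and Gimap4 at 2.32 and 2.23.

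Non-member transcripts of the cluster were compared with the members beside them. Gimap1os had 87.4, 55.1 and 64.3 CPM in CD4-positive and 47.2, 50.8 and 96.4 CPM in CD4-negative libraries, high where Gimap1 was high. Gm28053 had 23.5, 13.2 and 6.63 CPM in CD4-positive and 8.22, 7.09 and 24.9 CPM in CD4-negative libraries. The lincRNA Gm44226, between Gimap5 and Gimap3, was flat among CD4-negative libraries (44.9, 46.6 and 43.5 CPM). In CD4-positive libraries it had 43.8, 42.1 and 33.6 CPM. The lincRNA 4833403J16Rik, which overlaps it, had 19.8, 16.7 and 9.62 CPM in CD4-positive and 18.2, 15.9 and 18.7 CPM in CD4-negative libraries. Both were lowest in CD4-positive replicate 3. Positions along the chromosome did not order the spread: Gimap5, next to Gimap1, varied less than Gimap3 at the far end.

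The promoters of the most variable members and of the flat Gimap8 are printed to set their sequence beside this contrast. Each is the 250 bases before the annotated RefSeq start (GRCm38.p6), 5′ to 3′ on the strand of the gene: chr6:48684328-48684577 for Gimap4, chr6:48718371-48718620 for Gimap7 and chr6:48646984-48647233 for the upstream start of Gimap8. Capitals mark matches, on either strand, to the motifs listed after them.
Gimap4: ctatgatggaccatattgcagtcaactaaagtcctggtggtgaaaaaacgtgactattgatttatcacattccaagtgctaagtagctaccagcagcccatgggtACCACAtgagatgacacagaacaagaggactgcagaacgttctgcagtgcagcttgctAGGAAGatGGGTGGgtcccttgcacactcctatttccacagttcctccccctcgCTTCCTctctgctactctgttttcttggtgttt
Gimap7: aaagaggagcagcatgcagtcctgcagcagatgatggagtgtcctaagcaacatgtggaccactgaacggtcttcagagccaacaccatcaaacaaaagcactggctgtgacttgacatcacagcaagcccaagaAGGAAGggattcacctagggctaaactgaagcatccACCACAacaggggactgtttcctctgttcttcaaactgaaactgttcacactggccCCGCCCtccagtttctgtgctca
Gimap8: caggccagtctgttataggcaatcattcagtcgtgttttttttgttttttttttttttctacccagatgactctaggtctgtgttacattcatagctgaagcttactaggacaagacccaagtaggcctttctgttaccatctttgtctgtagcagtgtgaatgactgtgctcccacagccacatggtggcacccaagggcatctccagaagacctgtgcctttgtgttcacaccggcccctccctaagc

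RefSeq lists 9 starts for the 8 members. Each motif was searched as a single string on either strand, so other forms of a site were not counted. The ETS string AGGAAG was found for 7 members, all but Gimap6, and in 29.5% of the 32851 promoters of this length. The Gimap6 window holds the related string CGGAAG, which was not searched, so it cannot be said to lack an ETS site. A RUNX core (TGTGGT) was found for Gimap1, Gimap4 and Gimap7 and in 14.0% of all promoters. A KLF core (CCACCC) was found for Gimap3, Gimap4, Gimap5, Gimap8 and Gimap9 (28.1% of all). For Gimap8 both the ETS and the KLF match lie before its downstream start (chr6:48647111-48647360, not printed), and the printed upstream window holds none of these motifs. The lack of capitals in the printed Gimap8 window thus depends on which of its starts is shown. The GC box (GGGCGG) was found for Gimap7 and Gimap9 (32.7%), the E-box CAGGTG for Gimap9 (17.2%) and TATAAA for Gimap6 (12.4%), and the RBPJ core TGGGAA for none (21.6%). No 2 of these motifs overlap in the 3 promoters shown. The matches are descriptions of these windows and mark no bound site.

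Genes known to act with GIMAP proteins were counted from lists. Of 11 BCL-2 family genes, several of which have been reported to bind GIMAP proteins, 0 passed in either direction and 2 had a log2 difference above 0 (median -0.14). Pmaip1, which encodes the death-promoting NOXA, had 2.80, 1.45 and 1.33 CPM in CD4-positive and 7.06, 4.997 and 3.18 CPM in CD4-negative libraries, without overlap (log2 difference -1.45, adjusted p = 0.545). The survival gene Bcl2a1b had 118 ± 28.7 against 75.4 ± 18.9 CPM (log2 difference 0.64, adjusted p = 0.965). Of 5 ATG8 genes, the autophagy proteins of which Gimap6 binds a member, 0 passed and 0 were above 0 (median -0.20). Map1lc3a had 3.62 ± 1.55 against 6.08 ± 3.76 CPM and Gabarapl1 33.9 ± 7.61 against 40.8 ± 8.76 CPM. The GSK3 kinases, reported to be restrained by Gimap5, and their target β-catenin gave 0 of 3 (Gsk3a 131 ± 3.73 against 140 ± 18.1 CPM, Ctnnb1 224 ± 45.3 against 208 ± 30.2 CPM).

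In the list of lymphocyte maturation and recirculation genes 0 of 12 genes passed and the median log2 difference was -0.19. The transcription factor Klf2 had 106, 109 and 90.2 CPM in CD4-positive and 253, 238 and 167 CPM in CD4-negative libraries, without overlap (log2 difference -1.11, SE 0.20, adjusted p = 0.117). The highest CD4-negative level of Klf2 was in replicate 1 and that of most GIMAP genes in replicate 3. The NK cell and ILC markers given above were likewise higher in every CD4-negative than in every CD4-positive library, and their part in these differences was not tested. Of 6 Notch pathway genes 0 passed (Rbpj 66.1 ± 4.07 against 48.2 ± 4.36 CPM, Dtx1 116 ± 15.9 against 175 ± 37.0 CPM).

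Of the protein-coding genes within 500 kb on either side of the cluster, 12 were tested and 0 passed. Tmem176b and Tmem176a, related membrane proteins and the nearest coding neighbours beyond Gimap3, had 3.15 ± 0.21 against 8.37 ± 2.46 CPM (log2 difference -1.41, adjusted p = 0.136) and 2.26 ± 0.63 against 5.71 ± 0.69 CPM (log2 difference -1.34, adjusted p = 0.201). Their groups did not overlap, nor did those of 3 further neighbours that were higher in CD4-positive cells, Zfp467 (5.21 ± 0.62 against 4.17 ± 0.28 CPM), Sspo (0.41 ± 0.06 against 0.16 ± 0.09 CPM) and AI854703 (3.45 ± 0.52 against 2.35 ± 0.51 CPM), named after their values were seen. In all, 5 of 12 tested neighbours had groups without overlap, against 9.41% of all tested genes.

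Above a mean level of 20 CPM, 6525 genes were ranked by likeness, and those whose levels followed the summed GIMAP level most closely over the 6 libraries were Sdha, Acadsb, Anapc7, Acaa2 and Traf1 (Pearson r of 0.998, 0.998, 0.998, 0.997 and 0.996 on log2 of CPM plus 1). Sdha is a subunit of succinate dehydrogenase, Acadsb and Acaa2 are enzymes of fatty acid and amino acid oxidation, Anapc7 is part of the anaphase-promoting complex and Traf1 is an adaptor of TNF receptors. Like 7 of the 8 GIMAP genes, each had its 2 highest levels in CD4-negative replicate 3 and CD4-positive replicate 1 (Sdha at 377 and 338 CPM, the other libraries at 248 to 285 CPM). This follows from ranking by likeness to a sum that is highest in these libraries. The same 2 libraries were highest in 31.0% of the 3888 genes averaging 50 CPM or more. The points share library and depth, and with 6 of them a high r describes these libraries only.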

How the data were processed

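The authors deposited a table of estimated counts per gene, not normalised, with 1 column per library. The submitters' processing notes name STAR, Picard, RSEM and build mm10, with no version, role or order. Columns were matched to samples by library name. Of the 47643 identifiers 47224 were found in GENCODE M21 (GRCm38) when versions were ignored and 39106 with the same version. The ranking per kilobase of exon used only genes found with the same version. Counts were rounded. R 4.3.3 with edgeR 4.0.16 was used: filterByExpr, TMM scaling, robust quasi-likelihood test on group alone, 2-sided, with Benjamini-Hochberg adjustment over all 12760 tested genes. SEs and 95% intervals come from the F statistic. DESeq2 1.42.0 and limma-voom (3.58.1) were alternatives. The test was first checked on simulated data. When a simulated difference was 2-fold, it passed in 24% of cases, and when it was 4-fold, in 94%. Among 129 simulated calls 11 were false (8.53%). These shares pool genes of differing spread, and a gene that does not pass may still differ 2-fold. For the members themselves the 95% intervals given above apply, and that of Gimap7 includes a 2-fold difference.

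The labels do not tie replicates to different animals; p-values therefore reflect only variation among these libraries, possibly technical. A single count was worth 0.0188 to 0.0247 CPM. The smallest member count was 3337, so counting error is small beside the spread between libraries. Members and lists were chosen with earlier results of these data known. All 8 members are named; from each list, members past the test or else the 2 with the smallest p, except items that are not reported here. Likeness was Pearson's r with the summed GIMAP level.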

Additional observations from a re-analysis of the deposited data

How the results depend on the processing

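No GIMAP member passed an adjusted p of 0.05 in the main edgeR fit or under any of the 17 alternatives. DESeq2 and limma-voom were among these, each run only on all libraries. The rest used edgeR, with other scalings, filters and designs, with libraries left out, or with a stricter cut of 0.01. The smallest adjusted p was 0.219 (Gimap7 by edgeR, in the 4 libraries with a mitochondrial share above 3%, chosen after seeing the data). Of 128 recomputed log2 differences 109 kept their sign and 19 did not. Of the latter, 11 came from leaving out a library; the others were, for Gimap1, 0.0071 by limma-voom, 0.0081 with the replicate block, 0.0172 with the naming scheme of libraries as batch term, 0.31 in replicates 1 and 2 alone (also added after seeing the data) and 0.17 in the 4 libraries. For Gimap8 the replicate block gave -3e-04, and replicates 1 and 2 alone gave 0.10 for Gimap3 and 0.15 for Gimap9. With each library left out in turn, the log2 difference ranged from -0.20 to 0.28 for Gimap1, -0.22 to 0.0847 for Gimap3, -0.18 to 0.53 for Gimap4, 0.06 to 0.21 for Gimap5, -0.0045 to 0.37 for Gimap6, -0.065 to 0.81 for Gimap7, -0.05 to 0.03 for Gimap8 and -0.30 to 0.10 for Gimap9, and the summed ratio from 0.914 to 1.26. The cause was not tested. Over all genes edgeR called 27. That number became 2 at an adjusted p under 0.01, 162 by DESeq2, 67 without the filter, 0 with the replicate block (531 at an unadjusted p under 0.05), 11 with the batch term, 9 in replicates 1 and 2 alone and 66 in the 4 libraries, and ran from 0 to 44 with a library left out, 44 without CD4-negative replicate 3 and 0 without any other. Same-numbered deviations from the group means correlated at -0.08, 0.34 and 0.04 for numbers 1, 2 and 3. The value for number 2 was the highest of any pair, while CD4-positive replicate 1 correlated best with CD4-negative replicate 3 (0.24). With 3 libraries per group the deviations within a group constrain one another. These values therefore cannot decide whether libraries of the same number were paired. The naming scheme of replicates 3 holds a single library in each group, so no test within it was possible. With 3 libraries per group, a difference in Gimap7 of up to 2.32-fold lies within the interval.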
